A study of Mus musculus with 70 samples.

Results

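Gene expression was compared between mouse ulnas taken 5 d after a stress fracture and intact ulnas, over all genes. The injured group held 5 libraries and the intact group 9, chosen as the columns of injured right bones and of intact left bones in the 5 d expression sheet. These 14 libraries were part of 32 ulna libraries analysed here and of 70 samples that the labels list for the study. The study followed a stress fracture of the ulna and a full fracture of the femur over several times after injury in female C57BL/6 mice aged 12 weeks. The labels list 10 intact ulnas, of which 9 have a column, and 1 is not analysed here.

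Both groups came from mice of the same strain (c57bl/6 in the labels), sex and age, with no allele or agent named. Each sample was a 5 mm piece of the ulna, round the injury or at the same place in the uninjured left bone, cleaned of soft tissue, frozen and ground. A step that removes marrow is named for the femur and not for the ulna. The labels call the tissue periosteum, while the extraction they describe used the whole piece of bone, and genes of osteocytes, blood cells and muscle were measured in every group. The intact bones were the left limbs of injured mice and served all times, so the controls are bones of injured animals. The columns are not tied to animals, so p-values measure only the spread between these samples. In such bulk samples fewer cells of a type and less RNA per cell cannot be told apart.

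Bone repair is known to proceed along 2 routes. In intramembranous ossification, progenitor cells of the periosteum become osteoblasts directly and lay down woven bone rich in type I collagen. In endochondral ossification, chondrocytes first build a template of type II collagen and aggrecan, then enlarge, make type X collagen and send out Indian hedgehog, and bone replaces the template. Osteoclasts, which resorb mineralised tissue, and blood vessels are known to take part in that replacement, and the stress fracture of the rodent ulna is used as a model in which the periosteum bridges the crack with woven bone.

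Levels are given as RPKM, reads divided by gene length and library size, after a scaling between libraries, in the order of injured libraries 1 to 5, with the lowest, highest and median intact library, and intact libraries are numbered as in their columns. Differences, and the sizes after "rose by", are on the log2 scale, with the standard error after ±. The 14 libraries held an estimated 8.11 to 18.3 M reads assigned to genes, and means in that unit were 13.4 ± 2.91 in intact (SD, n = 9) and 15.35 ± 1.34 in 5 d libraries (SD, n = 5). Pairs of libraries of the same group correlated at r = 0.960 to 0.974 across genes, which are not independent replicates. Among the 5 d libraries, library 2 had the highest levels of most cartilage genes and the lowest of most red cell genes, and main results are therefore also given without it.

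Of 46855 gene names, 20542 reached 0.5 RPKM in at least 5 ulna libraries and were tested with limma on a log2(RPKM + 0.1) scale, on which changes of low genes are understated. At 5 d 4583 genes were higher than in intact ulna (22.3% of those tested) and 4296 were lower (20.9%), at a Benjamini-Hochberg adjusted p below 0.05. A change of at least 2-fold was seen upward for 1135 genes (5.53%) and downward for 723 genes (3.52%). Among all genes tested, whether called or not, every injured library lay above every intact library in 2714 and below every intact library in 1743. The largest rises exceeded a log2 difference of 7 (Matn3, 7.15), while the largest fall by the same naming rule was −2.14 (Hist3h2ba). The median difference over all tested genes was −0.03. Without the scaling between libraries it was −0.18, and the calls split into 3158 higher and 7130 lower genes. With upper-quartile scaling 4001 genes were higher and 5107 lower. The authors' deposited table of 16374 genes for the same comparison called 4485 genes higher and 4494 lower. Of 15937 genes in both, 8067 were called in both, all with the same sign. Matn3, Lect1, Ucma and 3110079O15Rik, among the 15 largest rises named below, were not among the authors' genes and are not covered by this comparison.

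The 15 largest rises and 15 largest falls were named only among genes whose injured and intact libraries did not overlap. Their lack of overlap was therefore set by that rule. At least 10 of the 15 rises were genes of the cartilage matrix. Matn3, which encodes matrilin 3 of the cartilage matrix (chr12:8947929-8972028 on mm10), had levels of 12.1, 67.5, 37.7, 19.8 and 13.8 RPKM at 5 d and 0.0179 to 0.199 (median 0.0583) in intact ulna. Every injured library was far above the intact range, with library 2 highest and library 1 lowest. The mean was 369-fold that of intact ulna, and the log2 difference was 7.15 ± 0.43 (limma, adjusted p = 1.6e-13), or 6.78 without library 2. The intact median lay under 0.1 RPKM, where levels rest on few reads, so the size of that ratio is uncertain. Panx3, a membrane channel protein of osteoblasts and of chondrocytes about to enlarge (chr9:37659902-37669235), stood at 49.4, 107, 54.6, 66.2 and 51.7 RPKM against 0.272 to 1.11 (median 0.449). Its 5 libraries were closer together than those of Matn3, and none came near the intact range. Panx3 had a 134-fold higher mean, 65.8 ± 23.9 against 0.491 ± 0.26 RPKM (SD, n = 5 and 9), and a log2 difference of 6.84 ± 0.28 (adjusted p = 3.3e-16). C1qtnf3, a secreted protein of the C1q and TNF related family, stood at 62.3, 96, 74.1, 47.2 and 40.7 RPKM against 0.422 to 1.1 (median 0.669). It rose by 6.36 ± 0.33.

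**Figure D1:**
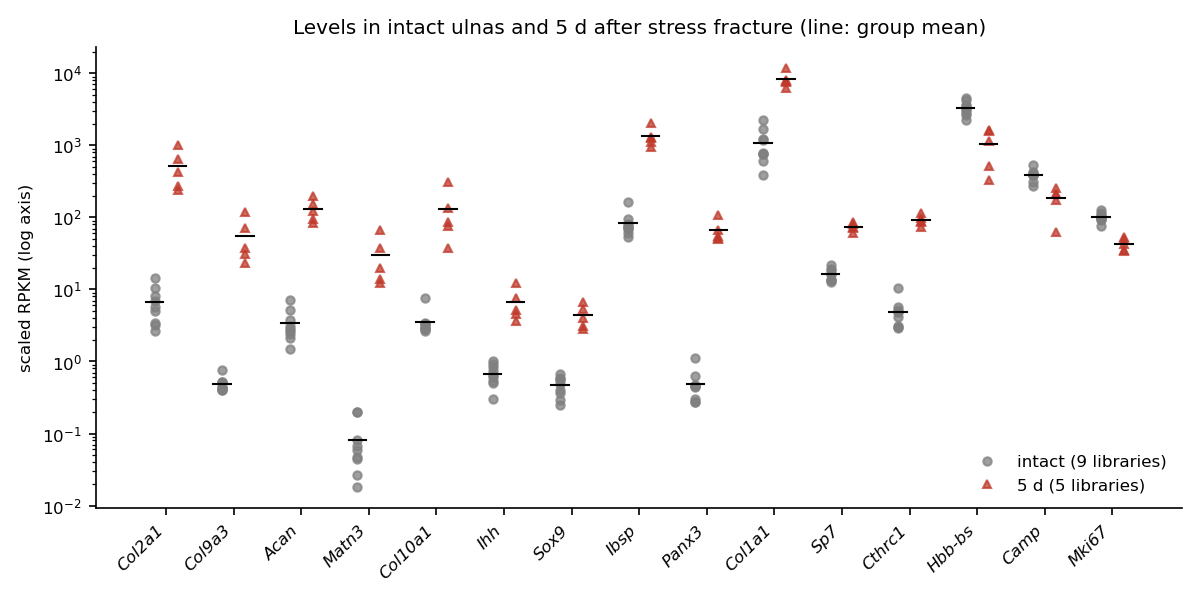
Scaled RPKM (log axis) of 15 genes in 9 intact ulnas (grey circles) and 5 ulnas 5 d after stress fracture (red triangles), with a line at each group's mean. For Col2a1 the injured libraries lie between 242 and 1014 and the intact ones between 2.68 and 14.5, while for Hbb-bs the injured libraries lie below every intact library.

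The 3 genes of type IX collagen, which decorates type II collagen fibrils, were among these rises together with the main fibril gene itself. Col2a1, the defining collagen of cartilage (chr15:97975602-98004695), had levels of 242, 1014, 648, 423 and 270.4 RPKM at 5 d and 2.68 to 14.5 (median 5.73) in intact ulna. Library 2 was highest and library 1 lowest among the injured. Its mean was 77.9-fold higher, 519 ± 320.2 against 6.66 ± 3.85, and the log2 difference was 6.25 ± 0.57 (adjusted p = 4.1e-10), or 5.96 without library 2. Col9a3 had 23.6, 117, 70.3, 37.3 and 30.7 RPKM against 0.4 to 0.751 (median 0.436), and Col9a2 had 31.4, 136, 78.2, 47.1 and 33.8 against 0.499 to 0.819 (median 0.645). Both followed the same order of libraries as Col2a1, with library 2 highest and library 1 lowest. Their log2 differences were 6.34 ± 0.45 and 6.25 ± 0.49, and that of Col9a1 was 5.54 ± 0.45.

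Hapln1, the link protein that ties aggrecan to hyaluronan, stood at 14.3, 55.6, 33.5, 19.8 and 19.3 RPKM against 0.139 to 0.903 (median 0.256), a log2 difference of 5.91 ± 0.38. Lect1, whose product chondromodulin is a cartilage protein that restrains vessel growth, stood at 5.84, 42.5, 24.3, 17.7 and 8.98 against 0.0813 to 0.392 (median 0.262) and rose by 5.63 ± 0.60. Ucma, a small secreted protein of the cartilage matrix, ranged more widely, with 0.789, 14.6, 12, 2.64 and 2.1 RPKM at 5 d and 0 to 0.497 (median 0.0611) in intact ulna. Library 1 was low for Ucma and libraries 2 and 3 were high, and its log2 difference of 4.67 ± 0.62 was 4.20 without library 2. Acan, the large proteoglycan of cartilage, had 95.3, 200.2, 153, 123 and 83.9 RPKM against 1.51 to 7.16 (median 2.82). The groups were well apart, by 5.29 ± 0.35 (adjusted p = 1.2e-12), or 5.12 without library 2. Also among the 15 were Col10a1 and Ptgs2, described with their groups, and Car12, a membrane carbonic anhydrase (5.32 ± 0.31). The last was 3110079O15Rik (5.02 ± 0.73), an earlier symbol of the chondrocyte gene Snorc, which is not in the counts of the chondrocyte list below.

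The largest falls were mostly genes of red blood cells and their precursors, histone genes and the telomerase RNA. Hbb-bs, a beta globin of adult red cells (chr7:103826534-103828096), had levels of 522, 327, 1577, 1643 and 1163 RPKM at 5 d and 2247 to 4612 (median 3220.3) in intact ulna. Libraries 1 and 2 were lowest among the injured. The mean was 3.2-fold lower, and the log2 difference was −1.90 ± 0.30 (adjusted p = 7.8e-06), or −1.54 without library 2. Klf1, the transcription factor of red cell precursors, had 11.3, 7.21, 23.8, 14.1 and 19.1 RPKM against 30.9 to 67.8 (median 48.3) and fell, with a difference of −1.83 ± 0.27, or −1.59 without library 2. Ermap, a red cell membrane protein, had 4.59, 3.99, 13.1, 9.48 and 9.24 against 18.4 to 35.5 (median 28.2). Terc, the RNA template of telomerase, had 10.3, 5.63, 11.9, 11.5 and 13.2 RPKM against 22.4 to 69.8 (median 34.2), a log2 difference of −1.84 ± 0.25. Hist3h2ba and Hist1h2ah, 2 histone genes with close copies in the genome whose reads are uncertain, fell, with differences of −2.14 and −1.87. The other falls in the 15 were Hbb-bt, Hbq1b, Car1, Rhag, Rhd, Hemgn, Cldn13, Btnl10 and Gm867, with log2 differences from −1.97 to −1.81.

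The stretch of 250 bases before the start of the gene is shown for 3 genes of cartilage and bone that rose and 2 globin genes that fell. Genes and letters were picked by hand and each gene holds a match, so they do not show what is typical of a group. Ibsp is not among the 15 largest rises. Only 1 kind of match is marked per gene, and other matches in Hapln1, Ibsp and Hbb-bs are unmarked. The sequences are those of RefSeq on GRCm38.p6, read 5′ to 3′ along the gene's strand. Capitals mark a match to TGTGGT (or ACCACA on the other strand), letters known for binding of RUNX factors, in Hapln1 and Ucma; to TGACG, part of a cyclic AMP response element, in Ibsp; and to CACCC, letters bound by KLF factors, in both globins. The windows are chr13:89540386-89540635 (+) for Hapln1, chr2:4975872-4976121 (+) for Ucma, chr5:104299037-104299286 (+) for Ibsp, chr7:103827929-103828178 (−) for Hbb-bs and chr7:103813924-103814173 (−) for Hbb-bt.
Hapln1: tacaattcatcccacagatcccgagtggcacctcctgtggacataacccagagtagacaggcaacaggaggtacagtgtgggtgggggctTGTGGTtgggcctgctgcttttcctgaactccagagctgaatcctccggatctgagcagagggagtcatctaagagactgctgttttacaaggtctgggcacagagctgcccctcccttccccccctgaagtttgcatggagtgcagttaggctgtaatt
Ucma: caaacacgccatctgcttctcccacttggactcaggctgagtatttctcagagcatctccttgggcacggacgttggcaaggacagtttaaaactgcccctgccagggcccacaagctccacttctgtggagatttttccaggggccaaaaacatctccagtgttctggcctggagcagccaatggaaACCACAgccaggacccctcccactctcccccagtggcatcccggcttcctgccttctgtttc
Ibsp: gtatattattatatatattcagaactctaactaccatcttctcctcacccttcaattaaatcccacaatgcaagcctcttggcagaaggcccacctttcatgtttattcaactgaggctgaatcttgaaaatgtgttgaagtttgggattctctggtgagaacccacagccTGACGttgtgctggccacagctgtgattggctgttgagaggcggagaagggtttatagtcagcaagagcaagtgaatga
Hbb-bs: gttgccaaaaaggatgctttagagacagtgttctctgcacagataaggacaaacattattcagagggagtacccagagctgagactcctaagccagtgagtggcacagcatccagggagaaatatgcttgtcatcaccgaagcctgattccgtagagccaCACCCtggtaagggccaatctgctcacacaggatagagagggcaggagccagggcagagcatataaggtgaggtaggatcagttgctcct
Hbb-bt: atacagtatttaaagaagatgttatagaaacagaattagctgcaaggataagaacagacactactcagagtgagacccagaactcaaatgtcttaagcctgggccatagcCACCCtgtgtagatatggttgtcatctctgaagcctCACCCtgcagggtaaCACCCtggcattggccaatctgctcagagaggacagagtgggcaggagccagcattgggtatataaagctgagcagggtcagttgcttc

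Of the 15 largest rises and the 15 largest falls, 10 each had an entry among these promoter sequences. TGTGGT, searched on both strands, was found in 4 of the 10 rises and 3 of the 10 falls, beside 11.3% of 11521 promoters of tested genes. CACCC was found in 4 of the 10 rises and 8 of the 10 falls, beside 57.8% of all promoters. AGATAA, letters known for GATA factors, was found in none of the 10 rises and 3 of the 10 falls, beside 6.14%. AACAAT, letters known for SOX factors, was found in none of the rises and 1 of the falls, beside 5.3%, and TGACG in none and 1, beside 25.6%. A match describes letters in this window and is no binding site, and a window without a match says nothing about the factor.

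Chondrocyte genes rose as a group. Of 17 listed markers 16 were tested. The other, Snorc, had its row under the earlier symbol 3110079O15Rik and is not counted with them. Of the 16, 13 rose and 1 fell, with a median log2 difference of 4.85 beside −0.03 over all genes. Sox9, the master transcription factor of chondrocytes, had levels of 2.87, 6.72, 5.36, 4.07 and 3.15 RPKM at 5 d and 0.248 to 0.66 (median 0.493) in intact ulna. All 5 injured libraries were above the intact range, and the log2 difference was 2.98 ± 0.24 (adjusted p = 5e-11). Matn1, a matrilin of mature cartilage, had 0.465, 9.1, 5.17, 3.12 and 1.95 RPKM against 0 to 0.239 (median 0.0301), with library 1 nearest to the intact range and no overlap, and it rose by 4.41 ± 0.47. Col11a1 and Col11a2, chains of the thin collagen XI fibril core, rose by 3.57 and 2.87, and Comp, a cartilage oligomeric matrix protein that tendon also makes, by 2.77. Sox6, a partner of Sox9 in cartilage that red cell precursors also express, was the member that fell (−0.67 ± 0.16). The Sox5 and Chad differences of 0.29 and 0.62 did not pass the test. Without library 2, 12 of the markers rose.

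Genes of enlarged, hypertrophic chondrocytes rose in the same libraries, some of which osteoblasts express as well. All 6 listed markers rose, with a median of 2.74. Col10a1, the collagen of hypertrophic cartilage (chr10:34389981-34397085), had levels of 136, 311, 86.9, 76.8 and 38 RPKM and 2.65 to 7.52 (median 3.03) in intact ulna. Library 2 was highest and library 5 lowest among the injured. The mean was 36.7-fold higher, and the log2 difference of 4.88 ± 0.51 (adjusted p = 5.1e-09) was 4.48 without library 2. Ibsp, bone sialoprotein, which is made by hypertrophic chondrocytes and osteoblasts (chr5:104299171-104311469), had 1315, 2011, 957, 1274 and 1124 RPKM against 53.5 to 165 (median 74.2), a difference of 4.03 ± 0.26. Mmp13, a collagenase of hypertrophic cartilage and osteoblasts, had 73, 92.9, 37.9, 54.8 and 47.5 against 14.3 to 39.2 (median 26.1). Its library 3 lay within the intact range, and the log2 difference was 1.25 ± 0.34. Runx3, a transcription factor of maturing chondrocytes, rose by 0.57.

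The hedgehog pathway, through which Indian hedgehog acts on neighbouring cells, moved upward at the ligand, the receptors and the target genes. Of 12 listed genes of hedgehog and parathyroid hormone related signalling 11 were tested, 9 rose and 0 fell, with a median of 1.25. Ihh, the ligand, had levels of 5.21, 12.2, 7.58, 4.53 and 3.64 RPKM at 5 d and 0.299 to 1.01 (median 0.647) in intact ulna. The groups did not overlap, and the log2 difference was 3.04 ± 0.35 (adjusted p = 3.9e-08), or 2.79 without library 2. Ptch1, both receptor and target of the pathway, had 15.8, 30.4, 21.8, 21.8 and 14.9 RPKM against 4.69 to 6.19 (median 5.61). Gli1, a transcription factor that hedgehog signalling switches on, had 11, 13.4, 13.9, 14.4 and 8.73 against 4.19 to 5.88 (median 4.95). Both were above the intact range in all 5 libraries, by 1.84 ± 0.14 and 1.26 ± 0.14. Smo, the signal transducer, Gli2 and Gli3 and the decoy receptor Hhip rose by 1.25, 1.38, 1.24 and 0.80. Pth1r, the receptor for parathyroid hormone and its related protein, had 91.1, 142, 109, 133 and 82.1 RPKM against 16.5 to 24.8 (median 20.8) and rose by 2.43 ± 0.16. Dhh and Pthlh, another hedgehog ligand and the ligand of Pth1r, did not pass the test, with differences of 0.38 and 0.10.

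Osteoblast genes and the bone matrix they make rose in nearly every listed member. Among 15 osteoblast factors and enzymes 14 rose and none fell (median 1.52), and among 15 bone matrix genes 14 rose and none fell (median 2.14). Col1a1, the main collagen of bone, had levels of 6241, 8139, 7826, 11860 and 7482 RPKM at 5 d and 382 to 2279.9 (median 784) in intact ulna. All injured libraries were above the intact range, and library 4 was highest. The mean was 7.76-fold higher, and the log2 difference was 3.11 ± 0.38 (adjusted p = 1.1e-07). Sp7, osterix, the transcription factor that commits cells to the osteoblast fate, stood at 73.3, 81.6, 60.3, 85.1 and 70.5 RPKM against 12.7 to 22.1 (median 16.3). These libraries were close together in both groups, and the difference was 2.20 ± 0.15 (adjusted p = 1.2e-12). Runx2, which acts upstream of Sp7, rose by less (0.78 ± 0.11). Alpl, the alkaline phosphatase that frees phosphate for mineral, had 159, 237, 169, 237 and 157 RPKM against 24.5 to 50.2 (median 32.7), a difference of 2.49 ± 0.17. Ifitm5, a membrane protein of mineralising osteoblasts, had 68.9, 96.3, 72, 124 and 78.4 against 5.37 to 15.7 (median 9.3), a difference of 3.27 ± 0.25. Neither gene overlapped between the groups. Dlx3 and Creb3l1, transcription factors of osteoblasts, rose by 1.49 and 2.76, and Mef2c did not pass the test (0.08).

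Within the matrix list, Smpd3, a sphingomyelinase needed for mineralisation, had 80, 141, 109.8, 131 and 92.9 RPKM at 5 d against 3.56 to 13.8 (median 6.2). The groups were well apart (3.98 ± 0.30). Col1a2, Col5a2 and Sparc, which encode the second chain of type I collagen, a chain of the associated type V collagen and osteonectin, rose by 2.95, 3.01 and 2.78. Bglap, osteocalcin of late osteoblasts, had 536, 350.1, 400.4, 652 and 384 RPKM against 23.9 to 294 (median 108), and its near copy Bglap2 may share its reads. All injured libraries lay above the intact range although that range was wide, and the differences were 1.87 ± 0.51 and 1.47 ± 0.42. Spp1, osteopontin, rose by 1.18, and Mepe, a matrix protein of osteocytes, did not pass the test (−0.27). Of 12 tested genes of mineralisation and phosphate handling (14 listed), 8 rose and 1 fell (median 0.88). Slc8a3, a sodium and calcium exchanger, and Mgp, an inhibitor of mineral in cartilage, rose by 1.23 and 1.30, and Slc20a1, a phosphate transporter, fell, with a difference of −0.53.

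Of 10 osteocyte markers 4 rose and 2 fell, with a median of 0.32. These are 40% and 20% of the list, beside 22.3% and 20.9% of all genes tested. Pdpn, podoplanin of young osteocytes, rose by 2.07 ± 0.15. Dmp1, a mineral regulator of osteocytes, had 67.3, 105, 81.9, 127 and 82.3 RPKM against 28.4 to 55.7 (median 34.7), without overlap, and rose by 1.35 ± 0.21. Phex and Irx5 rose by 1.17 and 0.61. Sost, the sclerostin of mature osteocytes, had 151, 67.4, 116, 118 and 132 RPKM at 5 d and 127 to 198 (median 154) in intact ulna. Libraries 1 and 5 lay within the intact range and the other 3 below it, with library 2 lowest. The log2 difference of −0.45 ± 0.16 passed the test (adjusted p = 0.024), but without library 2 it was −0.27 and did not, which left 1 lower call in the list. Fgf23, the phosphate hormone of osteocytes, was low in both groups and overlapped between them, with 0.0854, 0, 0.204, 0.113 and 0.0684 RPKM against 0.0387 to 1.16 (median 0.92). It fell, with a difference of −1.88 ± 0.46 (adjusted p = 0.0015).

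The extracellular matrix outside bone and cartilage rose too, together with the enzymes that build collagen. All 18 genes of fibrous and provisional matrix rose (median 1.92). Fn1, fibronectin, had 242, 431, 363, 366 and 214 RPKM against 43.4 to 98.8 (median 50.3), and Postn, periostin of the periosteum, had 182, 207, 138, 147 and 137 against 23 to 67 (median 32.7). No injured library of either gene reached down to the intact range, and the differences were 2.55 ± 0.23 and 2.22 ± 0.27. Cthrc1, a secreted protein of cells that make collagen, had 89.4, 116, 74.6, 98.3 and 86.4 RPKM against 2.95 to 10.5 (median 4.89). Its groups were far apart, by 4.31 ± 0.32 (adjusted p = 6.9e-12), with a mean 18.9-fold higher. Col3a1, Fbn2 and Col6a3, which encode a fibrous collagen, a fibrillin and a chain of type VI collagen, rose by 2.50, 2.66 and 2.39.

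All 25 genes of collagen processing and secretion rose as well (median 1.78). Loxl4 and Lox, enzymes that cross-link collagen, had 32.2, 60.1, 30.9, 38.5 and 24.6 RPKM against 2.81 to 4.79 (median 3.51), and 157, 181, 111, 164 and 134 against 7.98 to 37.3 (median 13.2), respectively. Both were above the intact range in each injured library, by 3.35 ± 0.21 and 3.22 ± 0.29. Serpinh1, the collagen chaperone HSP47, had 671, 915, 660.3, 885 and 618 RPKM against 75.5 to 147 (median 108), and rose by 2.78 ± 0.19. Fkbp10, a prolyl isomerase for collagen, rose by 2.88 ± 0.17. Among genes of secretory stress and the unfolded protein response, 15 of 19 rose, with a median of 0.50. Pdia4, Pdia6 and Pdia3, disulfide isomerases, and Creld2 rose by 1.10, 0.94, 0.84 and 0.90.

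Proteases that remodel matrix and their inhibitors mostly rose. Of 21 listed genes 20 were tested, 16 rose and 1 fell (median 1.19). Adamts4, an aggrecanase, had 10, 7.77, 3.56, 5.78 and 5.04 RPKM against 0.213 to 0.815 (median 0.52). Timp1, an inhibitor of metalloproteinases, had 60.8, 67.2, 41, 70.3 and 54.3 against 5.67 to 7.93 (median 5.98). Neither gene overlapped, and the differences were 3.38 ± 0.35 and 3.15 ± 0.22. Mmp14, a membrane collagenase, and Adam12 rose by 2.22 and 2.22, while Timp3, another inhibitor, fell, with a difference of −0.46.

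Genes of progenitor cells, myofibroblasts and tendon were higher in part. Of 18 mesenchymal genes 11 rose and 2 fell (median 0.66). These are 61.1% and 11.1%, beside 22.3% and 20.9% of all genes tested. Prrx2 and Twist1, transcription factors of limb mesenchyme, rose by 2.05 and 1.46, and the surface proteins Thy1 and Mcam by 1.98 and 1.42. Cxcl12, a chemokine of marrow stromal cells, had 51.4, 34.8, 51.2, 54.2 and 60 RPKM against 66.6 to 102 (median 82.2), and Grem1, a BMP antagonist, had 0.897, 1.05, 1.25, 1.21 and 1.3 against 2.16 to 3.57 (median 2.56). Every injured library of both lay below the intact range, with differences of −0.77 ± 0.13 and −1.18 ± 0.20. Tendon markers rose in 6 of 7, with a median of 1.10. Tnmd, tenomodulin of tendon cells, had 18, 35.1, 16.2, 17.6 and 17.5 RPKM against 5.13 to 8.89 (median 5.77), with library 2 highest and no overlap, and rose by 1.63 ± 0.27, or 1.43 without library 2. Fmod, a proteoglycan of tendon and periosteum, and Scx, the transcription factor of tendon progenitors, rose by 1.57 and 1.10.

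**Figure D2:**
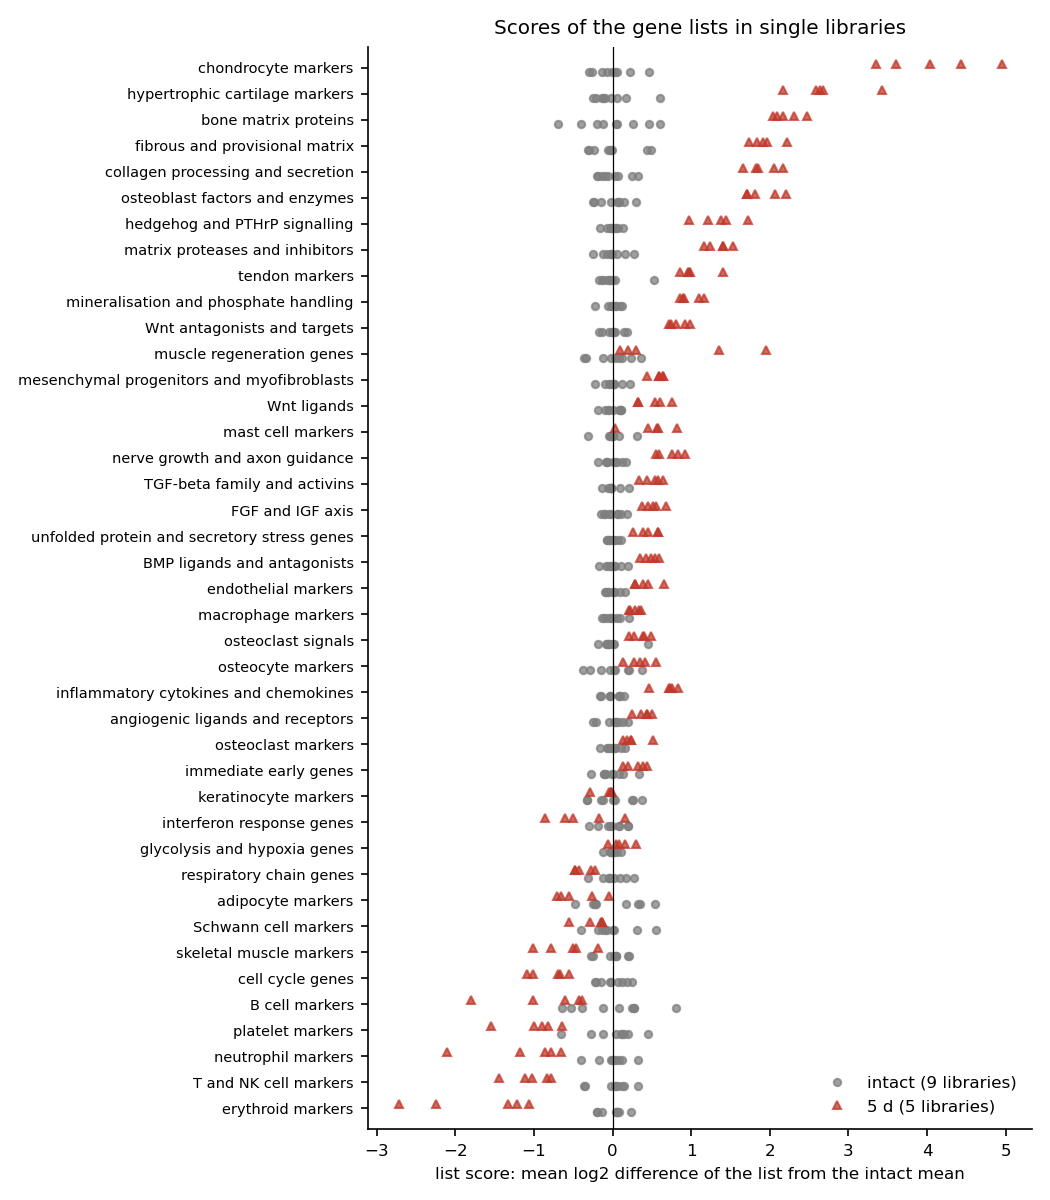
Mean log2 difference of each gene list's members from the intact mean, 1 point per library, for 41 lists sorted by their median (grey circles intact, red triangles 5 d). Chondrocyte genes have the highest scores and erythroid genes the lowest, and libraries 1 and 2 are lowest for erythroid genes.

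Signalling families differed in how many members rose. Of the BMP list, growth factors of bone and their antagonists, 18 of 21 were tested, 11 rose and 1, Grem1, fell (median 0.50). Bmp1, which is a procollagen protease despite its name, and Bambi, a pseudoreceptor that dampens the signal, rose by 1.97 and 1.72. The ligands Bmp5, Bmp2 and Bmp4 rose by 0.78, 0.53 and 0.54, and the antagonists Chrd and Fstl3 by 0.85 and 0.88. In the TGF-beta list 10 of 13 rose (median 0.51), against 6 without scaling between libraries. Tgfb3 had 42.8, 60.1, 43.6, 44.9 and 41 RPKM against 19.6 to 24.1 (median 22.5), and rose by 1.07 ± 0.13 without overlap, while Tgfb1 did not pass the test (0.12). Tgfbi and Ltbp2, a matrix protein induced by TGF-beta and a binding protein of the family that holds latent TGF-beta, rose by 0.90 and 0.73.

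Of 17 Wnt ligands 13 were tested and 8 rose, and 2 fell. These are 61.5% and 15.4%, beside 22.3% and 20.9% of all genes tested, so the lower share is not above the background. The lower calls were 0 without library 3 and 1 without library 2, library 5, intact library 5 or intact library 7. The largest rises were those of Wnt2, Wnt7b, Wnt5a, Wnt1 and Wnt5b, by 1.50, 1.34, 1.04, 1.03 and 1.02. Wnt1, a ligand that raises bone mass, was at a low level, with 0.684, 0.412, 0.87, 1.33 and 0.626 RPKM against 0.101 to 0.775 (median 0.268), and overlapped between groups (adjusted p = 0.0067). Among Wnt antagonists and targets 13 of 19 rose and 2 fell (median 0.75), of which 1 fell without library 1 and none without library 2. The shares were 68.4% and 10.5%, beside the same 22.3% and 20.9%. Sfrp2 and Sfrp1, secreted antagonists, rose by 2.29 ± 0.28 and 2.24 ± 0.22, and Sfrp1 had 13.6, 18.7, 13.2, 11.8 and 9.86 RPKM against 2.03 to 3.65 (median 2.83). Wif1, another secreted inhibitor, had 26.6, 28.3, 18.6, 37.3 and 29.7 against 8.18 to 19.3 (median 11.6), with library 3 inside the intact range, and rose by 1.21 ± 0.20. Tcf7, a transcription factor of the pathway, and Dkk2 and Dkk3 rose by 2.05, 1.53 and 1.34. Axin2, a common target gene of Wnt signalling, did not pass the test, with a difference of 0.01.

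In the FGF and IGF list 10 of 20 rose and 3 fell (median 0.50). These are 50% and 15%, beside 22.3% and 20.9% of all genes tested, so the lower share is not above the background. Fgf1, which fell (−0.35), did not pass the test without library 2, 3 or 4 or intact library 1, 2 or 6 to 10. Fgfr3, the FGF receptor of growth cartilage, had 13.5, 20.5, 19.1, 17 and 11.3 RPKM against 2.94 to 4.95 (median 4.35). It did not overlap and rose by 1.95 ± 0.14. Igf1 and Igf2, insulin-like growth factors, rose by 1.44 ± 0.16 and 1.55 ± 0.21, and H19, a non-coding RNA next to Igf2, by 1.32. Of 18 genes of nerve growth and axon guidance 16 were tested, 8 rose and none fell (median 0.53). The ephrin receptors Epha3 and Ephb2 and the ligand Efnb1 rose by 2.36, 2.30 and 1.47.

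Vessel genes rose by small amounts. Of 15 endothelial markers 14 rose and 1 fell, with a median of 0.44. Without scaling between libraries 9 rose, and without library 2 11. Pecam1, the adhesion protein CD31, had 30.4, 33.7, 27.1, 34 and 27.4 RPKM against 20.1 to 27.7 (median 22.5), with 2 injured libraries inside the intact range, and rose by 0.40 ± 0.08 (adjusted p = 0.00019). Cdh5, the cadherin of endothelial junctions, had 29.1, 36.4, 29.9, 46.7 and 28.3 against 18.5 to 25.3 (median 20.9), without overlap, and rose by 0.67 ± 0.10. Sox18, Eng and Tie1 rose by 0.88, 0.69 and 0.60, and Vwf, the von Willebrand factor of endothelium and platelets, fell, with a difference of −0.56. Among 18 angiogenic ligands and receptors 8 rose and 2 fell (median 0.19). These are 44.4% and 11.1%, beside 22.3% and 20.9% of all genes tested, so the lower share is not above the background. The lower calls were 0 without library 3 and 1 without libraries 1 or 2 or intact libraries 4, 5, 6, 8, 9 or 10. Aplnr, the apelin receptor, had 27.4, 42.7, 21.7, 37.7 and 30 RPKM against 2.02 to 10.2 (median 6.49), and its ligand Apln had 6.1, 6.07, 6.05, 4.66 and 6.12 against 1.13 to 1.64 (median 1.47). Both were above the intact range in all injured libraries, by 2.39 ± 0.26 and 1.95 ± 0.18. Pgf and Nrp2, a growth factor of the VEGF family and a coreceptor, rose by 1.11 and 0.96. Vegfa itself had 48.2, 30.8, 27.5, 35.7 and 35.8 RPKM against 19.4 to 40.9 (median 31.3) and did not pass the test (0.21 ± 0.16, adjusted p = 0.31).

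Osteoclast genes rose in part. Of 15 markers 6 rose and 2 fell, with a median of 0.18. These are 40% and 13.3% of the list, beside 22.3% and 20.9% of all genes tested, so the lower share is below the background. The higher calls were 4 without scaling between libraries, 5 without library 2 and 7 with only both groups' libraries in the fit. The lower calls were 1 without libraries 3 or 4 or intact libraries 1, 4, 5, 7 or 10. Ocstamp, a protein needed for osteoclast fusion, had 1.42, 1.57, 1.19, 1.78 and 1.22 RPKM against 0.37 to 0.614 (median 0.478), and Ctsk, the collagen-cutting cathepsin K, had 126, 145, 101, 127 and 123 against 48 to 74.3 (median 56.5). Neither overlapped, and they rose by 1.38 ± 0.24 and 1.11 ± 0.20. Tnfrsf11a, the receptor RANK, Dcstamp, another fusion protein, and Nfatc1, the transcription factor of osteoclast formation, rose by 0.92, 0.91 and 0.33. Itgb3, an integrin of osteoclasts and platelets, fell, with a difference of −0.63. Acp5, the acid phosphatase TRAP, had 45.3, 48.4, 48.2, 76.2 and 45.8 RPKM against 43.9 to 78.7 (median 59.2). These ranges overlapped, and neither Acp5 (−0.20 ± 0.21, adjusted p = 0.47) nor Mmp9 (−0.06) passed the test. Among 7 osteoclast signals 4 rose. Tnfsf11, the ligand RANKL, had 3.74, 4.73, 2.87, 3.65 and 3.55 RPKM against 0.901 to 4.36 (median 1.22), which overlapped at the highest intact value, and rose by 1.33 ± 0.28. Tnfrsf11b, the decoy receptor osteoprotegerin, rose by 0.68.

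Macrophage genes were called in part. Of 17 markers 5 rose and 1 fell (median 0.36), against 2 risen without scaling between libraries and 9 with only both groups' libraries in the fit. The shares of 29.4% and 5.88% stand beside 22.3% and 20.9% of all genes tested, so the higher share is near the background. Trem2, a lipid receptor of macrophages and osteoclasts, had 2.66, 3.69, 4, 3.07 and 2.47 RPKM against 0.888 to 2.15 (median 1.36), without overlap, and rose by 1.15 ± 0.20. Csf1r, Msr1 and C1qb rose by 0.54, 0.59 and 0.53, Itgam, shared with neutrophils, fell, with a difference of −0.72, and Adgre1, the macrophage marker F4/80, did not pass the test (0.36, adjusted p = 0.06).

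Among inflammatory cytokines and chemokines, with the enzyme of prostaglandin synthesis, 6 of 16 tested genes rose and 3 fell (18 listed, median 0.24). These are 37.5% and 18.8%, beside 22.3% and 20.9% of all genes tested, so the lower share is near the background. The higher calls were 4 with a pseudocount of 1. Ptgs2, cyclooxygenase 2, had levels of 6.77, 9.97, 5.32, 7.28 and 6.4 RPKM at 5 d and 0.104 to 0.245 (median 0.184) in intact ulna. The 5 libraries were close together and far above intact ulna, with a 40.4-fold higher mean and a log2 difference of 4.70 ± 0.27 (adjusted p = 1.2e-13). Ccl8, a chemokine for monocytes, had 7.73, 13.4, 8.09, 4.83 and 11.8 RPKM against 0.172 to 1.72 (median 1.1), and Il11, a cytokine of mesenchymal cells, had 1.42, 1.67, 0.808, 1.71 and 1.11 against 0.0334 to 0.36 (median 0.118). Neither overlapped, and they rose by 3.14 ± 0.37 and 2.58 ± 0.31. Ccl2 and Lif rose by 0.97 and 0.66, and Ccl7 by 1.37, which was 1.12 and not past the test without library 1. Il1a and Osm, cytokines of myeloid cells, fell, with differences of −0.77 and −0.75. Of 15 immediate early genes 4 rose and 1 fell, a call absent without library 1 or 4. The higher share of 26.7% is near the 22.3% of all genes tested, and the lower share of 6.67% is below their 20.9%. Nr4a2, an orphan nuclear receptor, had 11.3, 10.5, 8.52, 10.5 and 10.4 RPKM against 1.84 to 2.85 (median 2.21), and rose by 2.13 ± 0.13 without overlap, while Junb and Fosl2, parts of the AP-1 factor, rose by 0.62 and 0.63.

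Genes of blood and marrow cells were lower throughout. All 11 tested erythroid markers (12 listed), all 15 neutrophil markers and all 8 platelet markers fell, with medians of −1.75, −1.11 and −1.002 beside −0.03 over all genes. The summed level of the erythroid list was 819 to 3537 RPKM at 5 d and 5233 to 9024 in intact ulna, so the groups did not overlap. Its score, the mean log2 difference from the intact mean, was −2.24, −2.72, −1.06, −1.22 and −1.33 in injured libraries 1 to 5. The summed neutrophil level was 1041 to 3243 against 3761 to 6626 RPKM, with scores of −1.18, −2.11, −0.79, −0.86 and −0.66. Libraries 1 and 2 were lowest for both lists, and library 2 was also the one with most cartilage RNA, and the part of this in other results was not tested. Camp, a peptide of neutrophil granules, had 173, 63.1, 209.6, 213 and 257 RPKM against 277 to 535 (median 394). All 5 were below the intact range, with a difference of −1.22 ± 0.27, or −0.87 without library 2. S100a8, Mmp8, Retnlg and Cxcr2, also neutrophil genes, fell, with differences of −1.18, −1.21, −1.22 and −1.22. Slc4a1, the anion exchanger of the red cell membrane, had 54.4, 42.9, 141, 116 and 96.8 RPKM against 192 to 339 (median 279), and fell, with a difference of −1.75 (adjusted p = 7.8e-06). Hba-a1 and Hba-a2, alpha globins whose copies may share reads, fell, with differences of −1.73 and −1.72. Ppbp and Treml1, platelet genes, fell, with differences of −1.03 and −1.07, within a summed list level of 180.3 to 364 RPKM at 5 d and 324 to 742 in intact ulna.

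Lymphocyte genes were lower or did not pass the test. Of 11 B cell markers 5 fell and none rose (median −0.96). Ms4a1, the antigen CD20, fell, with a difference of −1.65. Of 11 markers of T and natural killer cells 9 fell (median −1.14), among them Cd8b1, Lck and Nkg7 with differences of −2.20, −1.35 and −1.25. Interferon response genes fell in 5 of 14 and rose in none, with Rsad2 and Isg15 at −1.55 and −1.35. Their lower share was 35.7% and that of the B cell list 45.5%, beside 20.9% of all genes tested. Mast cell genes went both ways, with 5 of 9 higher and 3 lower, and 3 higher without library 1, 2 or 3. Cma1, a chymase of connective tissue mast cells, had 7.29, 5.61, 4.13, 3.07 and 4.5 RPKM against 0.558 to 1.63 (median 0.899) and rose by 2.19 ± 0.40 without overlap, and Mcpt4 and Tpsb2, also mast cell proteases, rose by 1.63 and 1.56. Kit, Hdc and Ms4a2, which marrow precursors and basophils also express, fell, with differences of −0.55, −1.16 and −0.82.

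Skeletal muscle RNA was present in all libraries and lower at 5 d. Of 18 markers 14 fell (median −0.68), but 5 fell without library 4 and 7 without library 3. The summed level was 10090 to 14830 RPKM at 5 d and 15620 to 23980 in intact ulna. Ckm, muscle creatine kinase, had 1296, 1288, 1067, 836 and 1515 RPKM against 1418 to 2253 (median 1985). Its ranges overlapped, and the difference of −0.70 ± 0.27 (adjusted p = 0.034) was −0.58 and not past the test without library 4, −0.66 without library 3 and −0.67 without intact library 6. Mylpf, Tnni2 and Atp2a1, parts of the contractile and calcium machinery of fast fibres, fell, with differences of −0.67, −0.73 and −0.79. Of 10 muscle regeneration genes 3 rose, a share of 30% that is near the 22.3% of all genes tested. That count was 1 with a pseudocount of 1 and 2 without library 1. The largest rise was that of Tmem8c, myomaker of fusing myoblasts, with 1.69, 3.38, 0.342, 0.318 and 0.41 RPKM against 0 to 0.198 (median 0). Libraries 1 and 2 held most of the Tmem8c RNA, and its log2 difference was 2.81. Fat and nerve sheath genes were lower in part, with 4 of 11 adipocyte and 5 of 10 Schwann cell markers, of which 3 fell without library 2 or 3. The adipocyte and Schwann cell shares of 36.4% and 50% stand beside 20.9% of all genes tested. Adipoq, adiponectin, had 41.7, 18.3, 21.8, 25.4 and 34.2 RPKM against 23.3 to 55.9 (median 33.9), which overlapped and did not pass the test (−0.43 ± 0.23, adjusted p = 0.13). Mbp, a myelin protein, fell, with a difference of −0.76. Of 8 keratinocyte markers, which would show skin, 2 reached the filter and none was called.

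All 20 cell cycle genes fell (median −0.76). Mki67, the proliferation antigen Ki-67, had levels of 35.5, 34.4, 53.2, 43.3 and 50.3 RPKM at 5 d and 74.7 to 128 (median 101) in intact ulna. All injured libraries were below the intact range, with a difference of −1.23 ± 0.19 (adjusted p = 4.6e-06). Rrm2, Birc5 and Ccna2, genes of DNA synthesis and mitosis, fell, with differences of −1.18, −0.96 and −0.95. The erythroid and neutrophil lists, whose precursors divide in marrow, moved the same way, and their part in the cell cycle values was not tested. Respiratory chain genes fell in 8 of 16 and rose in none (median −0.32), from 4 with no filter to 16 without scaling between libraries, in 3 without library 3, 4 without library 2 or intact libraries 4, 6 or 10, and 5 without library 4 or intact library 7. Of 18 glycolysis and hypoxia genes 3 were higher and 8 lower, of which 2 were lower without library 3 and 3 without library 4. The shares of 16.7% and 44.4% stand beside 22.3% and 20.9% of all genes tested, so the higher share is below the background. The higher count was 2 without scaling between libraries and 4 with only both groups' libraries in the fit. Aldoc, an aldolase, rose by 1.01 and Car9, a carbonic anhydrase induced by hypoxia, fell, with a difference of −0.63.

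**Figure D3:**
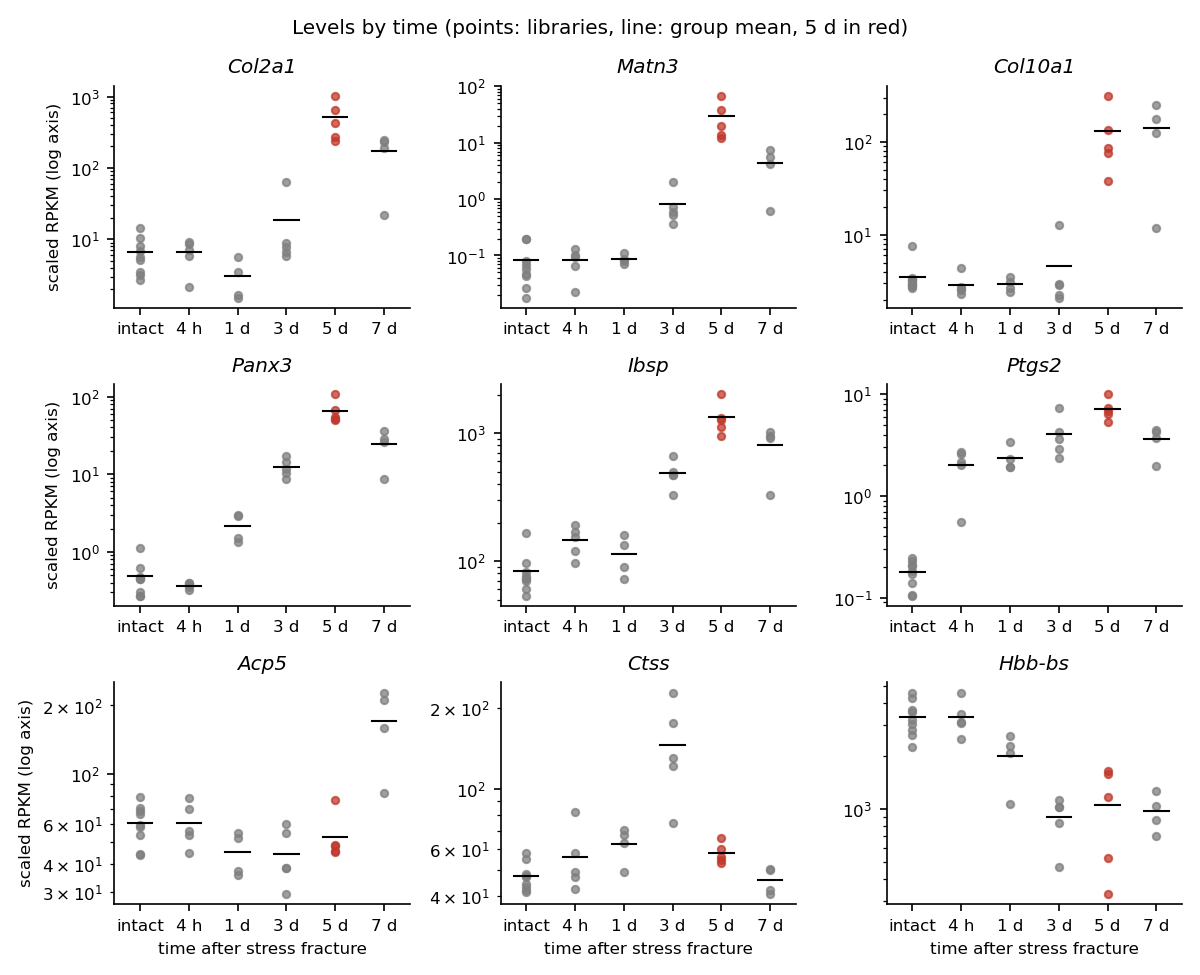
Scaled RPKM (log axis) of 9 genes from intact ulna through 7 d of healing (4 h, 1 d, 3 d and 5 d between). Each library is a point, with a short line at each group's mean. Col2a1 and Matn3 are highest at 5 d, Acp5 is highest at 7 d, and Hbb-bs is low from 3 d on.

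The 5 d ulnas were set beside those of 3 d (n = 5) and 7 d (n = 4) in the same fit to place them in the course of repair. These comparisons share the 5 d libraries with each other and with the intact comparison. Against 3 d 453 genes were higher (2.21% of those tested) and 502 lower (2.44%), and against 7 d 291 were higher (1.42%) and 57 lower (0.277%). The counts were less steady than those against intact ulna. Without scaling between libraries 263 genes were higher and 1165 lower than at 3 d, and 90 higher and 50 lower than at 7 d. When only both groups' libraries were fitted, 228 and 93 genes differed from 3 d, and 5 and 1 from 7 d. Single libraries mattered as well, since the higher count against 3 d was 255 without 3 d library 3, 212 without 3 d library 5, 223 without 5 d library 2 and 237 without 5 d library 4. The lower count against 3 d was 762 without 3 d library 1, 154 without 3 d library 3, 133 without 3 d library 5, 293 without 5 d library 1, 220 without 5 d library 2 and 269 without 5 d library 4. The higher count against 7 d was 77 without 5 d library 2, 128 without 5 d library 4, 57 without 7 d library 4 and 147 without 7 d library 5. The lower count against 7 d was 20 without 7 d library 5 and 29 to 37 without 5 d library 1, 2, 3 or 4.

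Cartilage genes led the rise from 3 d to 5 d. Of 16 chondrocyte markers 10 were higher at 5 d than at 3 d (median 2.54). Col2a1 had a mean of 18.5 ± 25 RPKM at 3 d, with libraries from 5.92 to 63.3, and 519 ± 320.2 at 5 d. The difference was 5.31 ± 0.64 (limma, adjusted p = 8.4e-06). Col9a3, Col9a2, Col9a1 and Lect1 were the others of the 5 largest rises, by 5.52, 5.41, 5.13 and 5.00. Col10a1 and Ihh, of hypertrophic and prehypertrophic cartilage, rose by 4.82 ± 0.57 and 2.57 ± 0.40, from 4.59 ± 4.59 and 0.977 ± 0.362 RPKM at 3 d. Hedgehog genes were higher in 8 of 11, among them Ptch1 by 1.53 ± 0.16 (adjusted p = 9.4e-07). The hedgehog count was 4 when only both groups' libraries were fitted and 5 without 3 d library 5 or 5 d library 2 or 4. Bone genes moved less over these days. Ibsp rose by 1.45 ± 0.30 and Panx3 by 2.38 ± 0.32, while 2 of 15 bone matrix genes passed the test. Endothelial markers were higher in 10 of 15, but in 5 without scaling between libraries, with only both groups' libraries or without 5 d library 4, and in 6 without 3 d library 5 or 5 d library 2.

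Some macrophage and inflammatory genes were lower at 5 d than at 3 d, while 1 of 15 neutrophil markers and 0 of 15 immediate early genes were. Ctss, cathepsin S of macrophages and other antigen-presenting cells, fell from 146 ± 58.1 to 57.9 ± 5.05 RPKM, a difference of −1.24 ± 0.19 (adjusted p = 0.00026). Of 17 macrophage markers 9 were lower (median −0.62), with 0 when only both groups' libraries were fitted, 2 without 3 d library 5 and 14 without 3 d library 1. Among inflammatory genes 5 of 16 were lower, the chemokines Cxcl1, Cxcl5, Ccl2, Ccl3 and Ccl7, with differences of −1.31, −1.44, −1.85, −1.46 and −1.95. When only both groups' libraries were fitted 1 of the 16 was called lower. Cxcl1 was at −0.75 and −0.50 and not past the test with pseudocounts of 0.5 and 1, and Ccl7 was not past it without 3 d library 3 (−1.82) or 4 (−1.53) or 5 d library 3 (−1.69) or 4 (−1.83). Ptgs2 was at means of 1.99 RPKM at 4 h, 2.38 at 1 d and 4.09 ± 1.96 at 3 d, and its difference of 0.87 between 5 d and 3 d did not pass the test (adjusted p = 0.11). Prg4, lubricin of joint surfaces and fluid, had 3.67, 4.91, 3.99, 3.48 and 5.26 RPKM at 5 d and 14.2 to 110 at 3 d. It fell, with a difference of −2.53 ± 0.55. Stfa2l1, a stefin of neutrophils, was lower, with a difference of −1.50. Clec4d, a lectin of myeloid cells, was lower, with a difference of −1.13, which did not pass the test without 3 d library 3 (−0.89), 3 d library 5 (−1.08) or 5 d library 2 (−1.07). S100a4, a calcium-binding protein of fibroblasts and leukocytes, was lower, with a difference of −1.03, and not past the test without 3 d library 3 (−1.06), 4 (−0.88) or 5 (−0.96), or 5 d library 2 (−1.06) or 4 (−0.96).

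**Figure D4:**
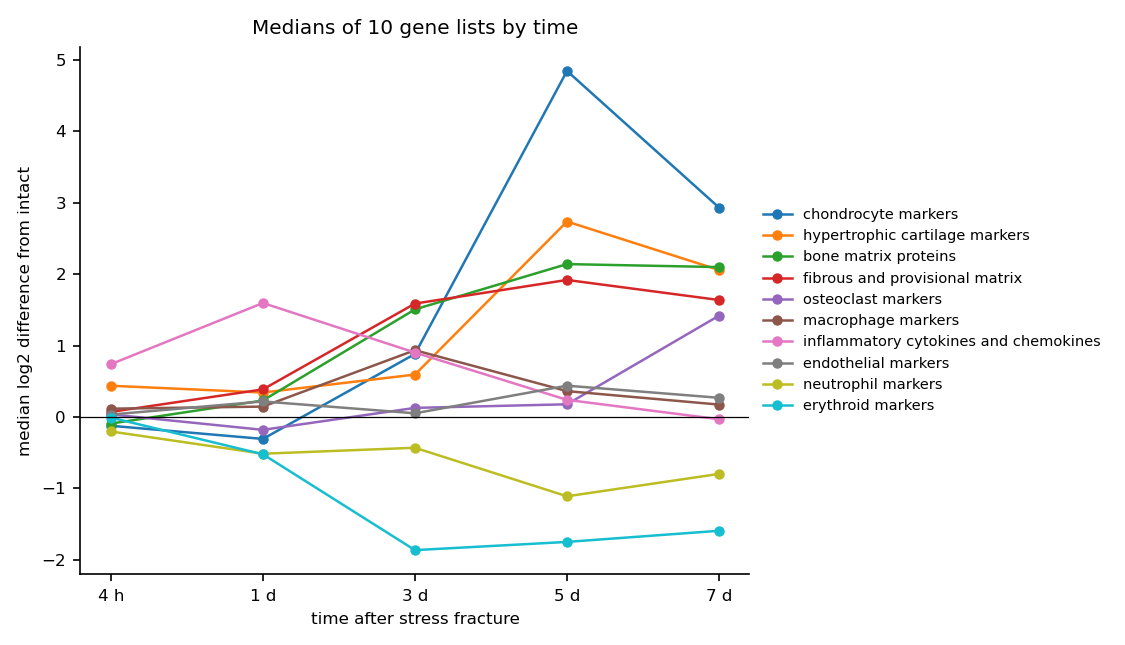
Median log2 difference from intact ulna of 10 gene lists from 4 h to 7 d of healing (x axis, 5 times). The chondrocyte median goes from 0.88 at 3 d to 4.85 at 5 d and 2.93 at 7 d, while the osteoclast median goes from 0.18 at 5 d to 1.42 at 7 d.

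Some cartilage matrix genes were higher at 5 d than at 7 d, and for Col10a1 no difference passed the test. The 7 d group was uneven. Its library 4 scored 1.11 for chondrocyte markers and 0.51 for osteoclast markers, against 2.73 to 3.05 and 1.29 to 1.55 in the other 7 d libraries. Hapln1 was at 14.3, 55.6, 33.5, 19.8 and 19.3 RPKM at 5 d and 1.02 to 6.42 at 7 d, and was higher at 5 d by 2.95 ± 0.45 (adjusted p = 0.0011). Matn3, Col9a3 and C1qtnf3 were higher at 5 d by 2.85 ± 0.52, 2.76 ± 0.54 and 1.99 ± 0.40. Without 7 d library 4 the Matn3 and Col9a3 differences were 2.11 and 1.80 and still passed. Col9a1 was higher by 2.62 ± 0.54, which was 1.78 and did not pass without 7 d library 4. Of 16 chondrocyte markers 7 were higher than at 7 d (median 1.88), with 4 without 5 d library 2 or 7 d library 4 and 0 when only both groups' libraries were fitted. Col2a1, at 22.1 to 249.8 RPKM at 7 d, overlapped and did not pass the test (1.84 ± 0.68, adjusted p = 0.2), with a difference of 1.01 without 7 d library 4. Col10a1 was at a mean of 129.7 ± 107 RPKM at 5 d and 140.4 ± 99.5 at 7 d, a difference of 0.17 ± 0.61 (adjusted p = 0.95). Its sign turned without 7 d library 4 (−0.80) or 5 d library 2 (−0.23). Ihh did not pass either (1.16), with 0.49 without 7 d library 4. Panx3 was higher at 5 d, by 1.52 ± 0.34, which did not pass without 5 d library 2 (1.33) or 7 d library 4 (1.07), and so was Ptch1, by 0.94 ± 0.17. Collagen processing genes were higher in 7 of 25, and no bone matrix gene was called. That count was 4 without scaling, with upper-quartile scaling or without 5 d library 3, 3 without 5 d library 4, 2 without 5 d library 2 or 7 d library 4, and 0 when only both groups' libraries were fitted.

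Osteoclast genes were lower at 5 d than at 7 d, 8 of 15 beside a background of 0.277% lower calls. None of the 15 was called when only both groups' libraries were fitted, a fit that called 1 lower gene in all, and 5 were with the stricter filter on low values. Acp5, at 45.3, 48.4, 48.2, 76.2 and 45.8 RPKM at 5 d, was at 82.3 to 228 at 7 d. The difference was −1.62 ± 0.25 (limma, adjusted p = 0.0011). Atp6v0d2, a proton pump subunit of osteoclasts, was at a mean of 5.73 ± 0.842 against 16.7 ± 6.45 RPKM, a difference of −1.43 ± 0.26. Ctsk, which was above intact ulna at 5 d, was lower than at 7 d, with a difference of −1.02 ± 0.24 (adjusted p = 0.024), and not past the test without 5 d library 3 (−0.95) or 4 (−1.03) or 7 d library 2 (−0.81) or 5 (−0.89). Mmp9, Siglec15, Ocstamp, Dcstamp and Oscar, genes of resorption, fusion and costimulation, were lower, with differences of −1.32, −1.42, −1.57, −1.62 and −1.66. Without 7 d library 5 the Dcstamp difference was −1.45 and did not pass. Tm4sf19 and Snx10, a tetraspan protein and a sorting nexin that osteoclasts express, were lower, with differences of −1.22 and −0.79, and Mt3, a metallothionein, was lower with a difference of −1.71, which did not pass the test when any 1 of the 9 libraries was left out (−1.98 to −1.48). Of the 10 genes with the 5 largest called differences each way from 7 d, among those of at least 5 RPKM whose libraries did not overlap, all but C1qtnf3 fell short of the threshold when only both groups' libraries were fitted.

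**Figure D5:**
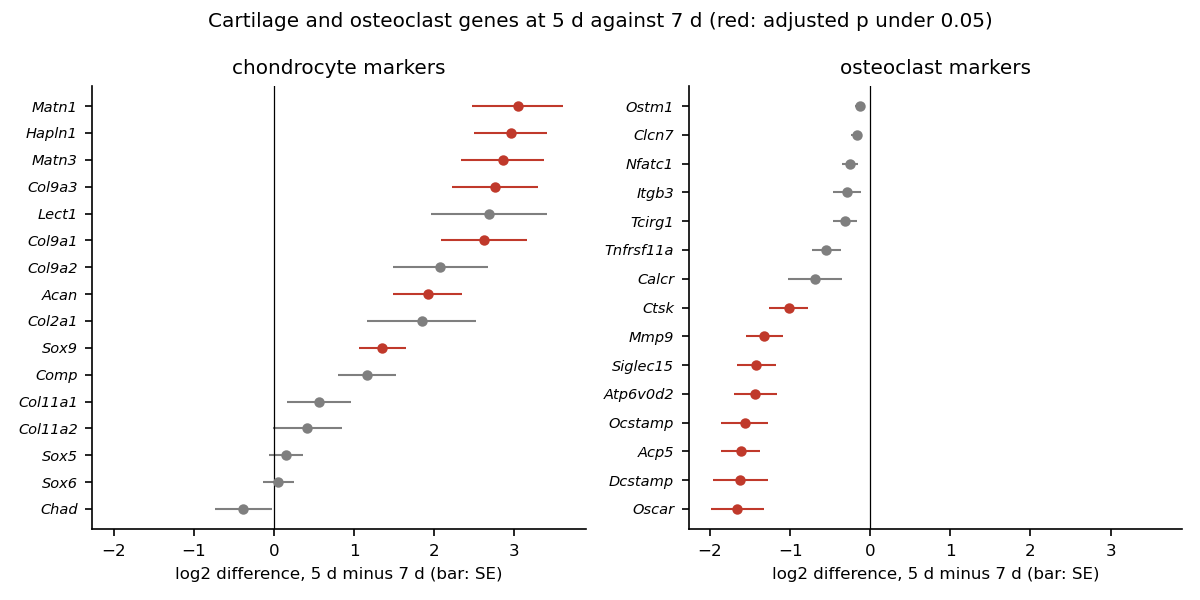
Log2 difference between 5 d and 7 d ± SE for chondrocyte and osteoclast markers, with genes at an adjusted p below 0.05 in red. Chondrocyte markers lie mostly to the side of higher 5 d levels and osteoclast markers to the side of lower ones, with Acp5 at −1.62 and Hapln1 at 2.95.

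Erythroid and platelet genes were already lower than intact at 3 d, in 11 of 11 and 7 of 8, while 0 of 15 neutrophil genes were. The share of all tested genes called lower than intact at 3 d was not worked out, so these counts stand without a background. The erythroid median was −0.01 at 4 h, −0.52 at 1 d, −1.86 at 3 d, −1.75 at 5 d and −1.59 at 7 d, each against the same intact libraries. Neutrophil genes had medians of −0.43, −1.11 and −0.80 at 3 d, 5 d and 7 d. Inflammatory genes had medians of 0.74, 1.60, 0.90, 0.24 and −0.03 from 4 h to 7 d, and macrophage genes of 0.94, 0.36 and 0.17 at the last 3 times. Bone matrix genes had medians of 1.51, 2.14 and 2.10, and fibrous matrix genes of 1.59, 1.92 and 1.64. These medians are descriptions of the lists, and differences between their values at different times were tested only gene by gene.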

How the data were processed

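Gene expression was measured by sequencing ribosome-depleted total RNA with single reads of 50 bases. Per the submitters' processing notes, reads were mapped to mm10 with STAR 2.4.2a, counted with Subread featureCounts 1.4.6, and the authors compared groups with DESeq2. Whether counting used strand is not given in the labels or files, so antisense partners and near-identical copies cannot be told apart. The authors deposited RPKM (reads divided by gene length and library size) per gene and library. They also deposited log2 fold changes and adjusted p-values per comparison, used as the authors' values only.

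The time of each ulna table came from its sheet name. As a check, log2 differences of the 5 d columns from intact correlated best with the 5 d fold changes of the authors' deposited table (r = 0.996 across genes, 0.924 for the next best time). Of 46882 gene rows, 27 had names turned into dates and were dropped (at most 0.119% of RPKM). The intact columns were the same at every time. The low RPKM values were whole multiples of 1 read for 88.9 to 90.6% of values under 20 reads (within 0.01 of a whole number), from which depth was estimated. The depths were not used in a count test. Gene coordinates are those of GENCODE M21 on mm10, whose starts differ from the RefSeq starts of the printed promoters for some genes, Ibsp and Hapln1 among them.

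RPKM were scaled by median-of-ratios factors over 32 ulna libraries (0.898 to 1.10, from 19306 genes). The 20542 genes that reached 0.5 scaled RPKM in 5 or more libraries were tested with limma 3.58.1 (trend and robust) in R 4.3.3 on log2(scaled RPKM + 0.1), with Benjamini-Hochberg adjustment over all genes tested, at 0.05. Alternatives were no scaling, upper-quartile scaling, pseudocounts of 0.5 and 1, no filter, a filter of 2 RPKM, only both groups' libraries, no trend and robust variance, and leaving out each library. The fit was checked on simulated data.

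Named genes were the 15 largest rises and 15 largest falls with no overlap of groups and at least 5 RPKM in the higher group, the 5 largest each way against 3 d and 7 d by the same rule, up to 4 members with the largest change in each of 41 lists (573 genes), members against their list's direction, and defining genes. Other list members named for context were chosen after their values were seen. The members and lists were chosen with earlier results of these data known. List medians and scores are descriptions without a test. A few genes of the lists are counted but not reported singly here.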

Additional observations from a re-analysis of the deposited data

Results flagged for a closer look

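Single libraries stood apart in 14 of 142 groups of values examined, by a gap to the nearest library that was large for the group's range, which chance gives for about 1 in 20 groups. Among the 5 d libraries, the mean log2 difference from intact ulna was 0.51 for osteoclast markers in library 4 (0.14 to 0.24 in the others), 0.44 for mesenchymal genes in library 5 (0.59 to 0.65), 1.403 for tendon markers in library 2 (0.86 to 0.99), 0.46 for inflammatory genes in library 3 (0.72 to 0.83) and −0.29 for keratinocyte markers in library 2. Among intact libraries, library 2 stood apart with scores of 0.60 for hypertrophic cartilage markers, 0.45 for osteoclast signals and 0.53 for tendon markers, and with levels of 7.52 RPKM for Col10a1 (2.65 to 3.42 in the others), 1.82 for 3110079O15Rik and 0.497 for Ucma. Further intact libraries apart were library 9 for Panx3, at 1.11 RPKM, library 8 for Col9a3, at 0.751, and library 6 for Hist1h2ah, at 25.1.

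The genes listed here are the 5 largest called differences each way from 3 d and from 7 d, without overlap of libraries. That they passed the limma test was therefore set by the rule that named them, and other genes differed as well. The calls of Clec4d and S100a4 from 3 d, and of Col9a1 and Mt3 from 7 d, were lost in some fits without 1 library, as given above. The log2 difference of 5 d and 3 d was 5.52 for Col9a3, 5.41 for Col9a2, 5.31 for Col2a1, 5.13 for Col9a1 and 5.00 for Lect1, and −2.53 for Prg4, −1.50 for Stfa2l1, −1.24 for Ctss, −1.13 for Clec4d and −1.03 for S100a4. Between 5 d and 7 d it was 2.95 for Hapln1, 2.85 for Matn3, 2.76 for Col9a3, 2.62 for Col9a1 and 1.99 for C1qtnf3, and −1.71 for Mt3, −1.62 for Acp5, −1.43 for Atp6v0d2, −1.22 for Tm4sf19 and −0.79 for Snx10.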

How the results depend on the processing

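No paired analysis was possible because the columns are not tied to animals. No called difference among the named genes changed sign under the alternatives run, while that of Col10a1 from 7 d, not called, turned from 0.17 to −0.80 without 7 d library 4 and −0.23 without 5 d library 2. Of 237 results for named genes, 228 kept their side of the threshold without scaling between libraries, 236 with upper-quartile scaling, 232 with a pseudocount of 1, 225 with no filter and 220 of 234 with only both groups' libraries. With each library left out, 3093 of 3228 did. Genes higher than intact by 2-fold or more numbered 662 with a pseudocount of 1. Genes lower than intact numbered 7130 without scaling, and those lower by 2-fold or more 1118 without scaling, 399 with a pseudocount of 0.5 and 287 with one of 1. Against 3 d, 263 were higher without scaling and 228 with only both groups' libraries, and 1165, 791 and 93 were lower without scaling, with upper-quartile scaling and with only both groups' libraries. Against 7 d, 90, 106 and 5 were higher under those settings, and 1 was lower with only both groups' libraries. The cause was not tested. With each library left out in turn, the counts against intact ulna were 4108 to 4591 higher and 3618 to 4305 lower, or 1031 to 1215 and 482 to 860 by 2-fold or more. Those against 3 d were 212 to 566 higher and 133 to 762 lower, and those against 7 d 57 to 366 higher and 20 to 71 lower. Levels under about 0.1 RPKM rest on few reads at these depths, and differences there are compressed by the pseudocount.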
